A study of Mus musculus with 18 samples.

Results

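The comparison set out here asks which genes responded differently to loss of miR-155 in CD8+ and in CD4+ T cells taken from tumors. For each gene, the log2 change of miR-155-deficient against floxed cells was measured in CD8 cells and again in CD4 cells, and the CD4 change was subtracted from the CD8 change. This value is called the difference of effects below. A positive difference means that the deletion moved the gene further up, or less far down, in CD8 cells than in CD4 cells. The contrast drew on 12 of the 18 libraries of the series, 3 in each of 4 groups, and 13738 of 49671 gene models had enough counts to be tested.

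The 4 groups were deficient CD8, floxed CD8, deficient CD4 and floxed CD4 cells, all from mice of strain B6 that carried a floxed miR-155 gene (155 Flox in the labels). The deficient groups also carried CD4cre, a Cre recombinase under the CD4 promoter. That promoter is active in developing T cells before they commit to the CD8 or CD4 lineage, so that both lineages lose the floxed gene while other cells of the mouse keep it. None of the 12 libraries came from mice given checkpoint antibodies. The tumors were B16f10-OVA, a mouse melanoma line engineered to make ovalbumin, grown under the skin for 12 days. Each library was made from sorted cells of 2 to 3 tumors of different mice that had been combined, and the labels give neither age nor sex. They do not say whether the CD8 and the CD4 pools, or pools of different genotype, shared animals, so p-values measure the spread between these pools.

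MicroRNAs are short RNAs that guide Argonaute proteins to matching sites, mostly in the 3′ untranslated region (3′ UTR) of messenger RNAs, and lower the level or translation of those messengers. miR-155 is cut from the transcript of Mir155hg, which T cells switch on when their antigen receptor is engaged. In CD8 cells it is known to favour effector responses, in part by keeping brakes on cytokine signalling such as Socs1 low, and in CD4 cells it is known for roles in helper and regulatory T cells. Direct targets are therefore genes whose levels miR-155 is known to lower.

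The mature miRNA is shown with its seed (bases 2 to 8) in capitals, since these bases pair with targets, followed by 30-base or shorter stretches of 3′ UTRs of reported targets that the results return to. Capitals in the 3′ UTR sequences mark the match to the seed (in AGCATTAA the match includes an A opposite the first base of the miRNA). The miRNA lies at chr16:84714143-84714165 on the plus strand (RefSeq, GRCm38.p6), inside the Mir155hg gene at chr16:84703167-84715245. The sites lie in 3′ UTRs of GENCODE M21 transcripts (GRCm38), at chr16:87732168-87732197 (plus strand, Bach1), chr2:167690346-167690375 (plus, Cebpb), chr4:11170409-11170438 (plus, Trp53inp1), chr3:115710675-115710704 (minus, S1pr1), chr16:10784204-10784232 (minus, Socs1) and chr1:87719818-87719847 (plus, Inpp5d).
mmu-miR-155-5p: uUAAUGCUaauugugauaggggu
Bach1 site: tttctctctatgaacagtttAGCATTAAgg
Cebpb site: tgagaaccttttccgtttcgAGCATTAAag
Trp53inp1 site: tacatttttacactaacacaAGCATTAAca
S1pr1 site: ttgtaccccccactccccaaaAGCATTAct
Socs1 site: ccggctgccgctgtgccgcAGCATTAAgt
Inpp5d site: gtcctgagatgtttttaaaaAGCATTAAag

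Mir155hg fell in both deficient groups, by similar log2 changes. It had 0.241, 0.921 and 1.99 CPM in deficient CD8 libraries, against 21.1, 19.7 and 9.37 CPM in floxed CD8 libraries (CPM, counts-per-million values scaled between libraries). In CD4 cells Mir155hg had 0.656, 0 and 0.58 CPM in deficient CD4 libraries, against 4.9, 8.16 and 6.74 CPM in floxed CD4 libraries. The groups did not overlap in either cell type, and deficient CD4 replicate 2 had no count. The log2 changes were -4.04 ± 0.64 (SE) in CD8 and -4.03 ± 0.85 in CD4 cells, and their difference was near 0 (SE 1.06, adjusted p = 0.993). The fall thus went with the genotype labels of the libraries. The labels do not give the borders of the deleted stretch, and reads of the host transcript outside it need not register the deletion. The value therefore does not give the share of cells that lost the gene or the level of mature miR-155.

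The libraries held 3872839 to 9791305 counts, so that 3 counts correspond to 0.301 to 0.87 CPM, a floor for counting error alone. Ribosomal RNA genes, with gene models that collect ribosomal RNA reads, took 12.1% of the counts in deficient CD4 replicate 3, 5.82% in floxed CD8 replicate 1 and 1.3% to 2.9% in the other 10. Cd4, the coreceptor of helper T cells, had 544 to 645 CPM in deficient CD4 and 234 to 466 CPM in floxed CD4 libraries and at most 3.22 CPM in CD8 libraries. Cd8a, the coreceptor chain of cytotoxic T cells, had 706, 749.9 and 652 CPM in deficient CD8 libraries, against 1358, 1483 and 1182 CPM in floxed CD8 libraries. In CD4 cells Cd8a had 0.262, 0.137 and 0.29 CPM in deficient CD4 libraries, against 14.7, 148 and 142 CPM in floxed CD4 libraries. Floxed CD4 replicates 2 and 3 thus held Cd8a well above floxed CD4 replicate 1, while the deficient CD4 libraries held next to none. The Cd8a difference was called by edgeR (7.81 ± 2.17, SE, adjusted p = 0.00543) and not by limma voom (adjusted p = 0.256).

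RNA of cells other than T cells moved with the groups as well. The summed level of 28 macrophage and monocyte markers was 1820, 2460 and 3614 CPM in deficient CD8 libraries, against 750.4, 856.1 and 2419 CPM in floxed CD8 libraries. It was 3849, 5695 and 5658 CPM in deficient CD4 libraries, against 19370, 13960 and 29600 CPM in floxed CD4 libraries. The order was thus reversed between the cell types: the deficient pools averaged higher than the floxed ones in CD8 cells, with overlap, and lower than all floxed ones in CD4 cells. The sum of 18 dendritic cell and antigen presentation markers was reversed too, without overlap in either cell type. Most of that sum came from Cd74 and the MHC class II genes H2-Aa, H2-Ab1 and H2-Eb1. They averaged 4302, 3227, 2210 and 1919 CPM of a mean sum of 13120 CPM in floxed CD4 libraries. Flt3, Zbtb46 and Siglech of the same list had negative differences of effects (-0.99, -0.80 and -2.95, not called). It was 1071 to 2073 CPM in deficient CD8 against 585.2 to 806.8 CPM in floxed CD8 libraries. In CD4 cells it was 3979 to 6192 CPM in deficient against 8448 to 19600 CPM in floxed libraries. The summed level of 17 melanoma markers was 1513 to 3362 CPM in deficient CD8 libraries and 171.7 to 215.7 CPM in floxed CD8 libraries. In CD4 cells that sum was 1991 to 4600 CPM in deficient and 164.7 to 698 CPM in floxed libraries, so it moved the same way in both cell types. Among less abundant markers, the B and plasma cell sum was 242.3 to 275 CPM in deficient CD8 libraries against 85.3 to 89.6 CPM in floxed CD8 libraries, and the gamma delta T cell sum was 73.3 to 80.5 CPM in deficient CD8 against 39.3 to 54.2 CPM in floxed CD8 libraries. Endothelial markers summed to 74.8 to 100.4 CPM in deficient CD8 against 30.3 to 38.5 CPM in floxed CD8 libraries, and erythroid markers to 5.97 to 9.03 CPM in deficient CD8 against 0 to 1.0 CPM in floxed CD8 libraries. Natural killer cell and neutrophil marker sums were lower in deficient CD8 than in floxed CD8 libraries, without overlap. The fibroblast sum was lower as well, but it consisted mostly of Thy1, which is also a pan T cell gene. Thy1 averaged 486 of 499 CPM in deficient CD8 and 874.5 of 875.5 CPM in floxed CD8 libraries. Col3a1, the other tested fibroblast marker, rose in deficient CD8 cells (log2 change 6.06), with a mean of 7.52 CPM and an SD of 11.1 CPM there. In CD4 cells the endothelial sum was higher (132.1 to 141.4 CPM in deficient CD4 against 76.9 to 109.8 CPM in floxed CD4 libraries). It was again mostly Pecam1, with means of 114 CPM in deficient and 73.3 CPM in floxed CD4 libraries. Vwf averaged 5.39 CPM in deficient and 0.81 CPM in floxed CD4 libraries, while Kdr averaged 7.29 and 16.9 CPM, neither of them called. The natural killer cell sum was lower in deficient than in floxed CD4 libraries, and the sums of the other less abundant markers overlapped. Of these lists, Ighm, the heavy chain of IgM, and Trdc, the constant chain of the delta receptor, had differences of 1.48 ± 0.21 (SE; adjusted p = 0.000493) and 2.12 ± 0.56 (SE; adjusted p = 0.0276), that of Trdc lost in 4 of 12 fits with 1 library left out (floxed CD8 replicate 2, deficient CD8 replicate 1, floxed CD4 replicate 3, deficient CD4 replicate 1; adjusted p up to 0.0742). In bulk RNA, fewer cells of a type and less RNA per cell cannot be told apart.

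In all, 1230 genes (8.95% of those tested) differed between CD8 and CD4 cells in their response to the deletion at an adjusted p under 0.05 (edgeR's quasi-likelihood test). Of these, 780 (5.68%) had the higher effect in CD8 cells and 450 (3.28%) the lower effect in CD8 cells. The median difference over all tested genes was -0.05 on the log2 scale. By itself, the deletion changed 2254 genes (16.4%) in CD8 cells, of which 1230 (8.95%) rose and 1024 (7.45%) fell. In CD4 cells it changed 1315 genes (9.57%), of which 540 (3.93%) rose and 775 (5.64%) fell. The 2 directions of difference had different effects behind them. Among the 450 genes with the lower effect in CD8 cells, 345 (76.7%) fell in deficient CD8 cells and were not called in CD4 cells, and 48 (10.7%) rose in deficient CD4 cells and were not called in CD8 cells. Among the 780 genes with the higher effect in CD8 cells, 251 (32.2%) rose in deficient CD8 cells and were not called in CD4 cells, 277 (35.5%) fell in deficient CD4 cells and were not called in CD8 cells, and 178 (22.8%) did both. Opposite calls of the other kind, a fall in CD8 and a rise in CD4 cells, were found for 8 genes.

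**Figure D1:**
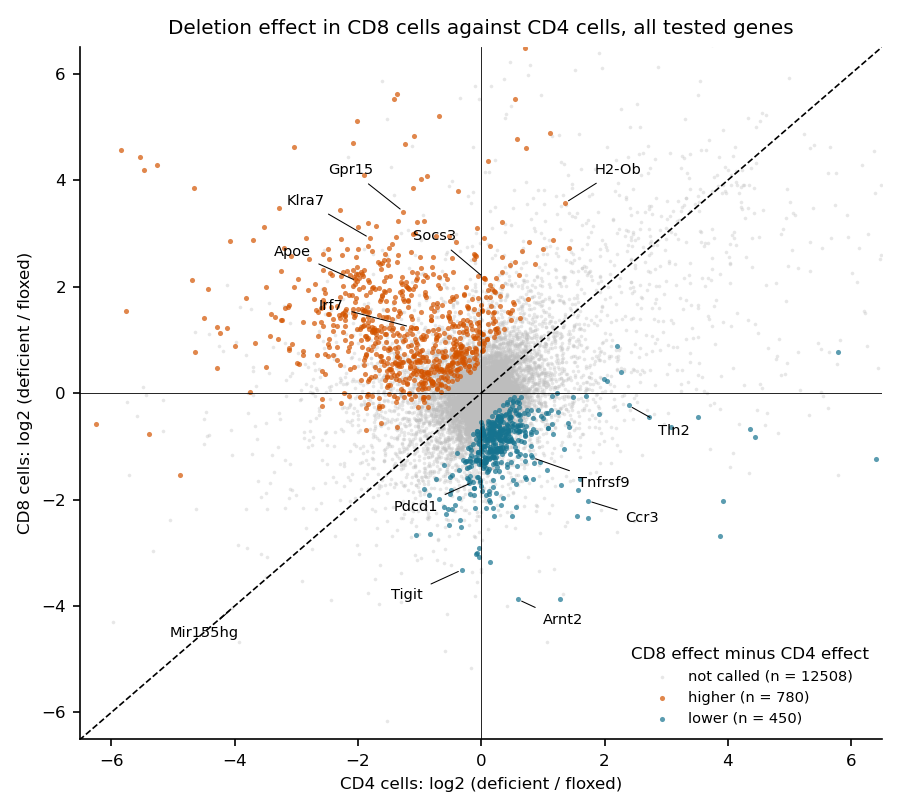
Each point is 1 of the tested genes, with its log2 change of deficient against floxed cells in CD4 cells (horizontal axis) and in CD8 cells (vertical axis). Orange points had a higher and teal points a lower effect in CD8 than in CD4 cells, and on the dashed line both effects are equal, where Mir155hg lies. The orange points spread into the upper left, where CD8 rises and CD4 falls, while the teal points lie mostly below the horizontal line, and 71 genes fall outside the axes.

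The number of calls changed when marker levels entered the fit. With the macrophage marker level of each library added to the fit as a covariate, 65 genes were called, 39 of which were among the 1230. With the melanoma marker level alone 1208 were called. Of the variance of the melanoma level 90.2% lay between groups, and its sum was higher in both deficient groups. It thus overlapped with the deletion effect shared by both cell types, so this fit cannot tell its part in the difference. The macrophage level itself differed between the 4 groups so strongly (90.1% of its variance lay between groups) that its part and that of the cell type by deletion contrast cannot be told apart in these 12 libraries. Of the genes named below, Socs3, Il4ra, Tnfsf8, S1pr1, Trp53inp1, Klra7, Apoe and Tnfrsf26 were still called with a higher effect in CD8 cells under that covariate, and Tyms with a lower one. Medians of gene lists under the covariate are given beside their counts.

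Of 25 tested genes for inhibitory receptors and exhaustion, 17 fell in deficient CD8 cells and 5 in deficient CD4 cells. The difference of effects was lower in CD8 cells for 9 of them (36%) and higher for 2, with a median of -0.94. Pdcd1 (chr1:94038305-94052553, minus strand) encodes PD-1, the receptor that blocking antibodies target in cancer therapy. It had 256, 286 and 243 CPM in deficient CD8 libraries, against 813, 955 and 737 CPM in floxed CD8 libraries. In CD4 cells Pdcd1 had 264, 233 and 284 CPM in deficient CD4 libraries, against 297, 309.8 and 249 CPM in floxed CD4 libraries. All 3 deficient CD8 libraries lay below all floxed CD8 libraries and at the level of CD4 cells, where the genotypes overlapped. The difference of effects was -1.54 ± 0.20 (SE; adjusted p = 0.000256).

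Havcr2, which encodes TIM-3, fell in both cell types but further in CD8 cells. Its level was 57.4, 126 and 77.3 CPM in deficient CD8 libraries, against 533, 646 and 483 CPM in floxed CD8 libraries. In CD4 cells Havcr2 was 72.4, 78.3 and 72.2 CPM in deficient CD4 libraries, against 132, 182 and 152 CPM in floxed CD4 libraries. Neither pair of groups overlapped, and the log2 changes of -2.67 in CD8 and -1.07 in CD4 cells differed by -1.61 ± 0.32 (SE; adjusted p = 0.00597). Entpd1, which encodes the ectonucleotidase CD39 that degrades extracellular ATP, had a log2 change of -2.28 in CD8 cells and -0.57, not called, in CD4 cells (difference -1.71 ± 0.28, SE, adjusted p = 0.00146). Lag3, a further inhibitory receptor that binds MHC class II, had 24.7, 38.6 and 30.02 CPM in deficient CD8 libraries, against 270.0, 138 and 115 CPM in floxed CD8 libraries. In CD4 cells it had 39.9, 54.3 and 46.1 CPM in deficient CD4 libraries, against 65.4, 81.9 and 54.2 CPM in floxed CD4 libraries, and the difference was -1.96 ± 0.41 (SE; adjusted p = 0.01).

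Tigit, another inhibitory receptor, had 6.98, 5.4 and 4.81 CPM in deficient CD8 libraries, against 116, 31.7 and 25.4 CPM in floxed CD8 libraries, and 17.7, 21.4 and 27.3 CPM in deficient CD4 against 37.3, 28.4 and 15 CPM in floxed CD4 libraries. The fall in CD8 cells held in every library, but floxed CD8 replicate 1 lay far above the other 2. The difference of -3.01 ± 0.77 (SE; adjusted p = 0.0345) was no longer called in 8 of 12 fits with 1 library left out, where the adjusted p reached 0.0919. The 8 were those without any deficient library or without floxed CD4 replicates 2 or 3, and limma voom did not call it either (adjusted p = 0.0852). That floxed CD8 library was also the highest of its group for Prdm1, Lag3, Bhlhe40 and Dscam, and it is the one with 5.82% ribosomal counts. The part of that share in these values was not tested.

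Ctla4 and Tnfrsf9 fell in CD8 cells and had higher levels in CD4 cells. Ctla4 encodes the receptor that competes with CD28 for its ligands and is abundant on regulatory T cells. It had 119, 133 and 111 CPM in deficient CD8 libraries, against 304, 333 and 252 CPM in floxed CD8 libraries. In CD4 cells Ctla4 had 1359, 1332 and 1471 CPM in deficient CD4 libraries, against 1456, 1079.6 and 802 CPM in floxed CD4 libraries, with the genotypes overlapping, and the difference was -1.61 ± 0.25 (SE; adjusted p = 0.00125). Tnfrsf9 encodes 4-1BB, a costimulatory receptor induced by activation, and was 1 of the 8 genes with opposite calls. It had 233, 321 and 235 CPM in deficient CD8 libraries, against 636, 713 and 475 CPM in floxed CD8 libraries, whereas it had 803, 889.7 and 1028 CPM in deficient CD4 libraries, against 686, 485 and 371 CPM in floxed CD4 libraries. Every deficient library was below its floxed counterparts in CD8 cells and above them in CD4 cells. The log2 changes were -1.21 and 0.82 and the difference -2.03 ± 0.30 (SE; adjusted p = 0.00102). The costimulatory receptor Icos showed a fall in CD8 cells (log2 change -1.14) with no call in CD4 cells (0.46; difference -1.60 ± 0.29, SE, adjusted p = 0.00293). Under the macrophage covariate the median difference of the inhibitory list was -0.29, with 1 member called higher and 0 called lower, and without floxed CD4 replicate 1 the 2 members with a higher effect became 4.

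Effector genes of cytotoxic cells were split. Of 28 tested members of the cytotoxic list, 9 had a lower and 3 a higher effect in CD8 cells. The count of 9 became 4 without deficient CD8 replicate 1 and became 5 without floxed CD8 replicate 2, and under the macrophage covariate 0 members were called (median difference -0.13, against -0.24 without it). Gzmb encodes granzyme B, the protease that killer cells pass into their targets. It had 476, 1147 and 713 CPM in deficient CD8 libraries, against 2670.5, 2825 and 2382 CPM in floxed CD8 libraries. In CD4 cells Gzmb had 687, 1017 and 858 CPM in deficient CD4 libraries, against 930.4, 865 and 771 CPM in floxed CD4 libraries. The CD8 groups did not overlap and the CD4 groups did, and the log2 changes of -1.75 in CD8 cells and near 0 in CD4 cells gave a difference of -1.75 ± 0.35 (SE; adjusted p = 0.00629). Prf1, the pore-forming partner of granzymes, had 218, 522 and 267 CPM in deficient CD8 libraries, against 1425, 1559 and 1102 CPM in floxed CD8 libraries. In CD4 cells Prf1 had 72.4, 81 and 63.5 CPM in deficient CD4 libraries, against 87.3, 251 and 188 CPM in floxed CD4 libraries, also lower in the deficient libraries. Floxed CD4 replicates 2 and 3, where Prf1 was highest, were also those with the most Cd8a. Cd8a averaged 102 CPM in floxed CD4 and 0.23 CPM in deficient CD4 libraries. The part of CD8 cell RNA in the CD4 values of cytotoxic genes was not tested. The Prf1 change of -2.02 in CD8 cells was called, its CD4 value of -1.28 was not, and the difference itself, -0.74 ± 0.54 (SE; adjusted p = 0.482), did not pass the test (adjusted p = 0.0298 with no filter on low counts). Ifng, the gene of interferon gamma, likewise had no called difference, at 0.49 ± 0.54 (SE; adjusted p = 0.663), with a called fall in CD4 cells alone.

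Of 18 tested members of the Th1 list, 7 had a lower and 0 a higher effect in CD8 cells, and 11, Ifng among them, were not called. The median difference was -0.96, and it was -0.487 without floxed CD8 replicate 1 and -0.31, with 0 members called, under the macrophage covariate. Without floxed CD4 replicate 3, 1 member had a higher effect. Cxcr6, a chemokine receptor of tissue-resident T cells, had 225, 277 and 275 CPM in deficient CD8 libraries, against 706, 1003 and 747 CPM in floxed CD8 libraries, and its CD4 levels overlapped between genotypes (difference -1.47 ± 0.24, SE, adjusted p = 0.00146). Fasl, the ligand that triggers death through Fas, had a difference of -1.28 ± 0.26 (SE; adjusted p = 0.00523), and Bhlhe40, a transcription factor needed for cytokine production in T cells, one of -1.52 ± 0.30 (SE; adjusted p = 0.00561). Il18r1, a chain of the IL-18 receptor, differed by -1.03. From the cytotoxic list, Prdm1 encodes BLIMP-1, a transcription factor of terminal effector cells, and had 14.9, 20.7 and 19.1 CPM in deficient CD8 libraries, against 122, 57.9 and 45.6 CPM in floxed CD8 libraries. Its CD4 levels were 79.7, 78.9 and 76.8 CPM in deficient and 78.4, 83.1 and 51.4 CPM in floxed libraries. The difference was -2.19 ± 0.43 (SE; adjusted p = 0.00664).

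**Figure D2:**
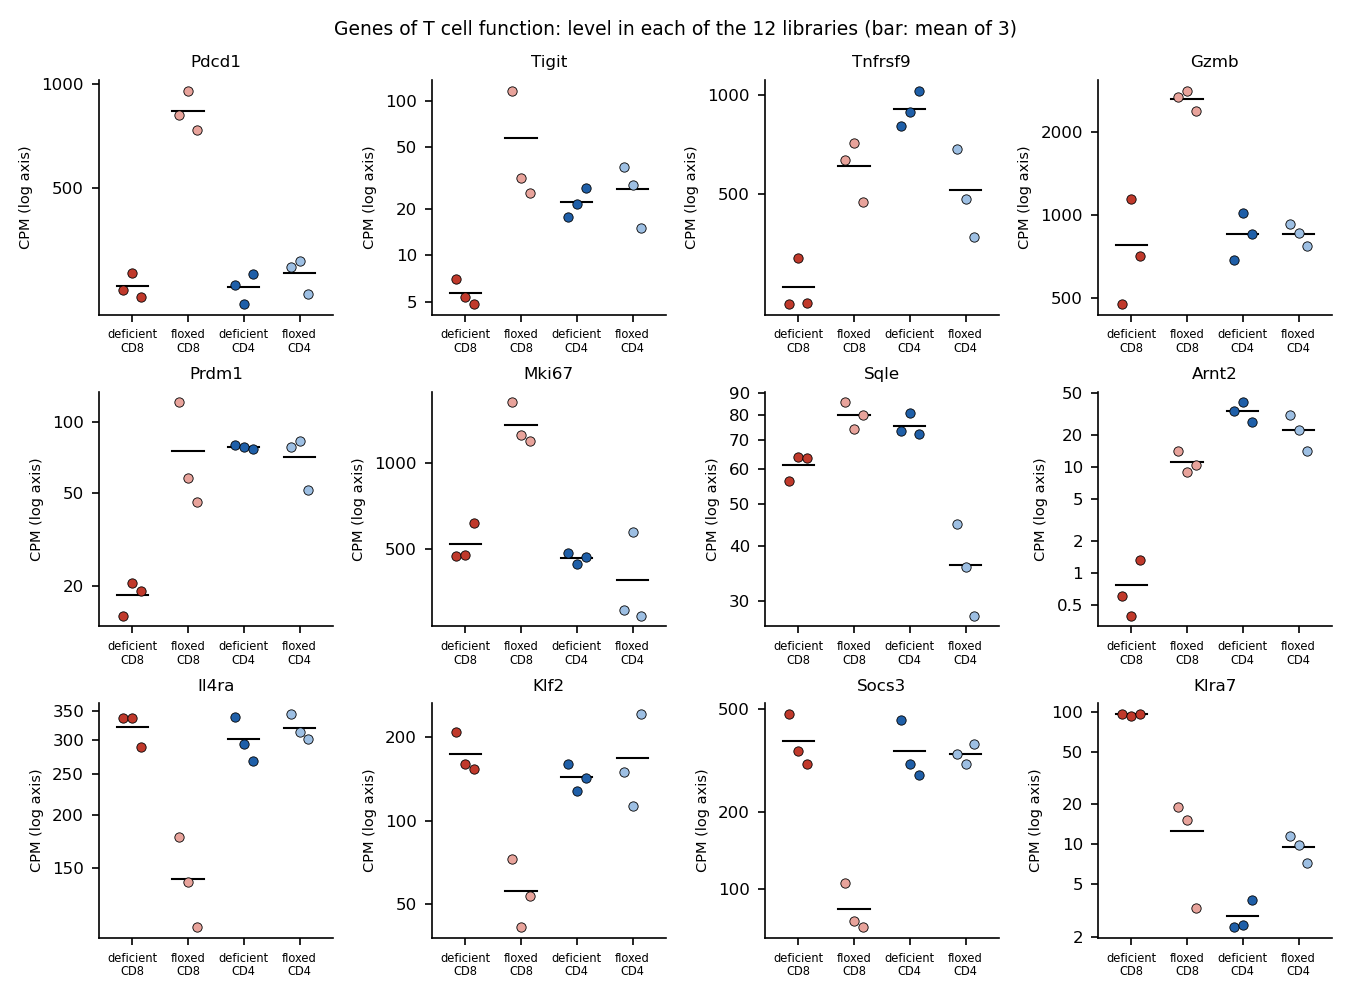
Each panel plots 1 gene in the 12 libraries in CPM on a log axis, with deficient left of floxed within each cell type and a bar at the mean of 3. Pdcd1, Gzmb and Mki67 are high in floxed CD8 libraries alone (for Pdcd1, 737 to 955 CPM), Sqle is lowest in floxed CD4 libraries, and Klra7 is highest in deficient CD8 libraries (93.3 to 97.2 CPM).

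Genes of cell division had lower effects in CD8 cells. Of 32 tested genes of G2 and mitosis, 22 (68.8%) had a lower and 0 a higher effect in CD8 cells, and the median log2 change was -0.94 in CD8 and 0.25 in CD4 cells (median difference -1.17). Of 33 tested genes of the G1 to S transition, 18 had a lower and 0 a higher effect (median difference -0.79). Mki67, which encodes the proliferation marker Ki-67, had 470.0, 475 and 618 CPM in deficient CD8 libraries, against 1645, 1260.4 and 1201 CPM in floxed CD8 libraries. In CD4 cells Mki67 had 482, 443 and 465 CPM in deficient CD4 libraries, against 305, 571 and 289.8 CPM in floxed CD4 libraries. The CD8 genotypes did not overlap, whereas in CD4 cells floxed replicate 2 lay above the other 2 floxed and all deficient libraries. The difference was -1.65 ± 0.32 (SE; adjusted p = 0.00486).

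Genes of DNA synthesis moved in the same sense. Rrm2, a subunit of the reductase that supplies deoxynucleotides, had 95.4, 113 and 118 CPM in deficient CD8 libraries, against 212, 178 and 199 CPM in floxed CD8 libraries. In CD4 cells it had 73.8, 70.2 and 87 CPM in deficient CD4 libraries, against 47.5, 64.5 and 52.7 CPM in floxed CD4 libraries, and the difference was -1.34 ± 0.21 (SE; adjusted p = 0.00125). Tyms, thymidylate synthase, differed by -1.31 and Chaf1a, a histone chaperone at replication forks, by -1.45. The mitotic kinases Aurkb and Bub1 differed by -1.35 and -1.20. Bub1, H2afx, a histone variant that marks DNA breaks, and Cdca3, a factor of mitotic entry, were among the 8 genes with opposite calls. Bub1 had 94.3, 88.8 and 101 CPM in deficient CD8 libraries, against 115, 158 and 161 CPM in floxed CD8 libraries, but it had 76.7, 60.2 and 74.8 CPM in deficient CD4 libraries, against 42.7, 56.7 and 40.9 CPM in floxed CD4 libraries. Ccnb1, cyclin B1, rose in deficient CD4 cells (log2 change 1.16) with a value of -0.77, not called, in CD8 cells.

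The share of called members varied with single libraries. With 1 library left out at a time, 11 to 29 of the G2 and mitosis genes and 7 to 22 of the G1 to S genes had the lower effect, and none the higher. The G2 and mitosis count fell to 11 without floxed CD8 replicate 2 and without deficient CD8 replicates 1 or 2, and the G1 to S count to 7 without deficient CD8 replicate 1 or deficient CD4 replicate 3. The G1 to S count was 9 when deficient CD8 replicate 3 was left out, and likewise for floxed CD8 replicate 2. The G2 and mitosis count was 12 to 14 without deficient CD8 replicate 3, floxed CD4 replicate 1 or deficient CD4 replicates 1 or 3. Under the macrophage covariate the medians were -1.07 for G2 and mitosis and -0.77 for G1 to S, with 0 and 1 members called. The 16 pan T cell genes had a median log2 change of -0.31 in CD8 and 0.24 in CD4 cells and 2 members (Thy1 and Cd28) called lower, the count being 4 without floxed CD4 replicate 2. Cd28 was lost in 10 of 12 fits with 1 library left out (adjusted p up to 0.102), and under the macrophage covariate 0 members were called (median difference 0.15, against -0.53 without it).

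**Figure D3:**
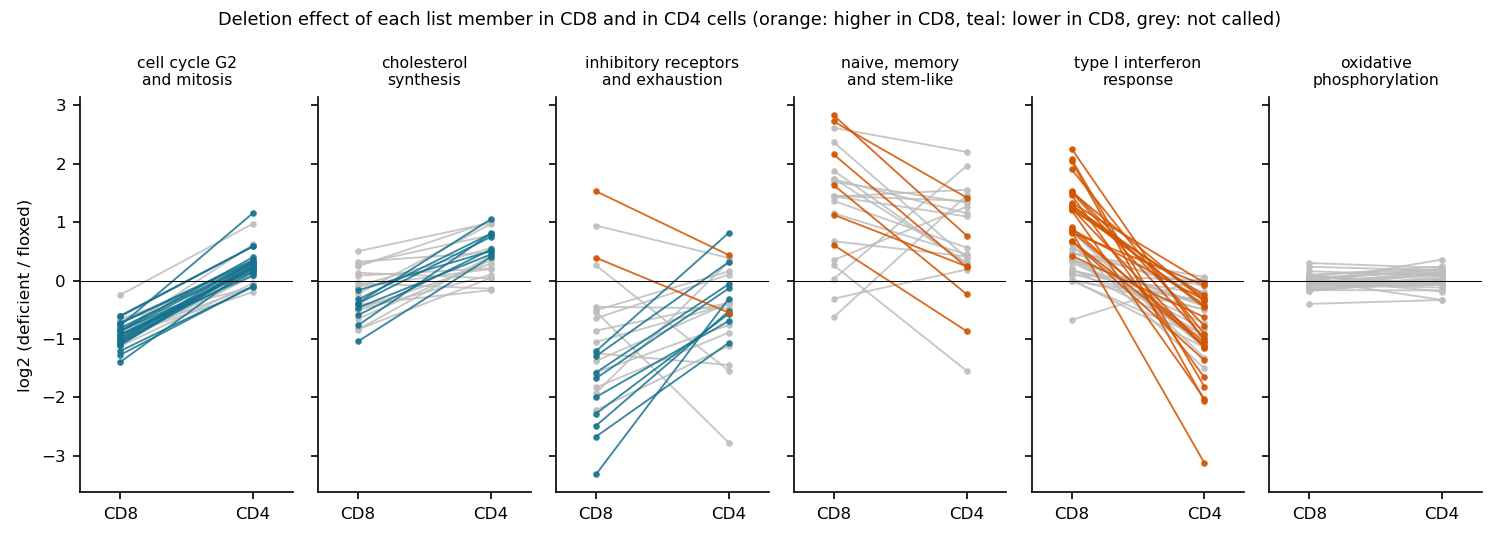
Each line joins the log2 change of 1 list member in CD8 cells (left) to that in CD4 cells (right), for 6 gene lists. Teal lines mark a called lower effect in CD8 cells, orange lines a called higher effect and grey lines no call. Lines of the cell cycle and cholesterol lists run upward from CD8 to CD4, those of the type I interferon list run downward across 0, and those of oxidative phosphorylation stay flat with 0 of 31 called.

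Genes of cholesterol synthesis had lower effects in CD8 cells too. Of 24 tested members, 8 had a lower and 0 a higher effect in CD8 cells, while 4 fell in deficient CD8 and 7 rose in deficient CD4 cells (median log2 change -0.35 in CD8 and 0.47 in CD4 cells). Sqle, squalene epoxidase, rose in deficient CD4 cells (log2 change 1.05), where it had 73.3, 80.9 and 72.2 CPM in deficient CD4 libraries, against 45.1, 35.9 and 27.7 CPM in floxed CD4 libraries. In CD8 cells its value was -0.38, not called, and the difference was -1.43 ± 0.23 (SE; adjusted p = 0.00134). Cyp51, a demethylase later in the pathway, resembled Sqle, with a difference of -1.13 ± 0.23 (SE; adjusted p = 0.00533), and Stard4, a cholesterol transfer protein, fell in CD8 cells (log2 change -1.04; difference -1.45 ± 0.25, SE, adjusted p = 0.00197). Under the macrophage covariate the median difference of this list was -0.64 with 0 members called, and 5 members were called without deficient CD8 replicate 1 or 3 or without deficient CD4 replicate 2.

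Among genes of glucose use, Slc2a3, the transporter GLUT3, had 170.5, 243 and 178 CPM in deficient CD8 libraries, against 502, 499.5 and 394 CPM in floxed CD8 libraries. Its CD4 levels were 193, 161 and 165 CPM in deficient and 137, 179 and 126 CPM in floxed libraries, which overlapped, and the difference was -1.47 ± 0.24 (SE; adjusted p = 0.00146). Of 23 tested glycolysis genes, 3 had a lower and 1 a higher effect in CD8 cells. The 3 became 1 without deficient CD8 replicate 1 or deficient CD4 replicate 2 and 6 without floxed CD8 replicate 1 or floxed CD4 replicate 1, and the 1 became 0 in 8 of 12 fits with 1 library left out. The median difference was -0.42, or -0.263 without floxed CD4 replicate 3, and -0.39 with 0 members called under the macrophage covariate. Plod2, a collagen-modifying enzyme induced by hypoxia, rose in deficient CD4 cells, with 35.7, 38.7 and 25.2 CPM in deficient CD4 libraries, against 13, 11.2 and 13.7 CPM in floxed CD4 libraries, and had a difference of -1.98 ± 0.36 (SE; adjusted p = 0.00301). None of the 31 tested genes of oxidative phosphorylation was called by edgeR, DESeq2 or limma voom, and 0 had an unadjusted p under 0.05 (median difference -0.07, and -0.58 under the macrophage covariate).

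Among genes at 10 CPM or more, some with strongly negative differences are better known from other tissues. Arnt2 (chr7:84246278-84410176, minus strand) encodes a partner of bHLH-PAS transcription factors. It had 0.602, 0.395 and 1.33 CPM in deficient CD8 libraries, against 14.1, 8.93 and 10.5 CPM in floxed CD8 libraries, and 34.1, 40.9 and 26.7 CPM in deficient CD4 libraries, against 30.7, 22.3 and 14.2 CPM in floxed CD4 libraries. Deficient CD8 libraries were thus near the floor of detection, while CD4 libraries of both genotypes kept the gene, and the difference was -4.47 ± 0.56 (SE; adjusted p = 0.000139). Filip1, an actin-associated protein, and Dscam, an adhesion molecule known from neurons, differed by -2.95 and -2.80. Tln2 (chr9:67217087-67559703, minus strand), which encodes talin 2, a linker of integrins to actin, was the reverse case. It had 9.51, 14 and 13.4 CPM in deficient CD8 libraries, against 13.8, 15.8 and 13.6 CPM in floxed CD8 libraries, with overlap, but rose in CD4 cells, with 10.4, 6.71 and 5.51 CPM in deficient CD4 libraries, against 1.69, 1.36 and 1.25 CPM in floxed CD4 libraries (difference -2.62 ± 0.48, SE, adjusted p = 0.0029). Ccr3, a receptor for eotaxins, was rare in CD8 cells. It had 0.241, 1.45 and 0.166 CPM in deficient CD8 libraries, against 0.879, 2.51 and 4.78 CPM in floxed CD8 libraries, and it rose in CD4 cells, with 48.1, 41.8 and 59.4 CPM in deficient CD4 libraries, against 14.4, 17.8 and 12.5 CPM in floxed CD4 libraries (difference -3.75 ± 0.81, SE, adjusted p = 0.00715).

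On the other side, genes of naive and resting cells had higher effects in CD8 cells. Of 23 tested genes of naive, memory and stem-like cells, 6 had a higher and 0 a lower effect in CD8 cells (median log2 change 1.44 in CD8 and 0.57 in CD4 cells). Klf2, a transcription factor of resting T cells that drives S1pr1, had 207, 160.0 and 153 CPM in deficient CD8 libraries, against 73, 41.4 and 53.5 CPM in floxed CD8 libraries. In CD4 cells Klf2 had 159, 127 and 142 CPM in deficient CD4 libraries, against 149, 113 and 242 CPM in floxed CD4 libraries, with overlap, and the difference was 1.87 ± 0.36 (SE; adjusted p = 0.00614). S1pr1, the receptor that lets T cells leave tissue, rose in both cell types. It had 366, 264 and 271 CPM in deficient CD8 libraries, against 59.8, 39.5 and 36.7 CPM in floxed CD8 libraries, and 348, 235 and 249 CPM in deficient CD4 libraries, against 109.6, 127 and 73.1 CPM in floxed CD4 libraries. The log2 changes were 2.73 and 1.42 and their difference 1.3 ± 0.33 (SE; adjusted p = 0.0242), which was lost in 6 of 12 fits with 1 library left out (deficient CD8 replicate 1, floxed CD8 replicate 2, deficient CD4 replicates 2 and 3, floxed CD4 replicates 1 and 2; adjusted p up to 0.0648). Slamf6, a receptor found on stem-like T cells, differed by 0.88 ± 0.19 (SE; adjusted p = 0.00751). Tcf7, the transcription factor TCF-1 of the same cells, had no called difference: it had 274, 220.4 and 231 CPM in deficient CD8 libraries, against 179, 51 and 36.2 CPM in floxed CD8 libraries, and 183, 116 and 121 CPM in deficient CD4 libraries, against 85.6, 68.2 and 41.7 CPM in floxed CD4 libraries. The genotypes were separate in both cell types, floxed CD8 replicate 1 was again apart from its group, neither effect was called, and the difference was 0.34 ± 0.73 (SE; adjusted p = 0.842). Without that library it was 1.36 (adjusted p = 0.0484). Under the macrophage covariate the median difference of the list was 1.93, against 0.71 without it, with 3 members called. Without floxed CD8 replicate 1 the median was 1.22, and without floxed CD8 replicate 3 there was 1 member with a lower effect.

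Of 26 tested genes of SOCS and STAT5 feedback, 3 had a higher and 2 a lower effect in CD8 cells and 21 were not called (median difference 0.08). With 1 library left out the 2 became 4 (without floxed CD8 replicate 3) or 1 (in 7 fits) and the median lay between -0.0769 and 0.247, and under the macrophage covariate it was 0.58 with 1 member called. Socs3 (chr11:117966079-117970047, minus strand) encodes a brake on signals through STAT3. It had 479.9, 344 and 305 CPM in deficient CD8 libraries, against 105, 75 and 71.1 CPM in floxed CD8 libraries. In CD4 cells Socs3 had 452, 307 and 276 CPM in deficient CD4 libraries, against 333, 306 and 365 CPM in floxed CD4 libraries. Deficient CD8 libraries lay at the level of CD4 cells of either genotype, where the genotypes overlapped, and the difference was 2.12 ± 0.30 (SE; adjusted p = 0.000617). Socs6, another member of the family, rose in CD8 and fell in CD4 cells (log2 changes 1.12 and -1.55; difference 2.66 ± 0.44, SE, adjusted p = 0.00245). Socs1, the family member with a reported miR-155 site (printed above), had 47.6, 54.2 and 50.4 CPM in deficient CD8 libraries, against 27.4, 25.1 and 22.8 CPM in floxed CD8 libraries, and 49.1, 66.5 and 57.1 CPM in deficient CD4 libraries, against 52.4, 42.2 and 42.2 CPM in floxed CD4 libraries. It rose in CD8 cells (log2 change 1.01) and had 0.34 in CD4 cells, but the difference, 0.68 ± 0.23 (SE; adjusted p = 0.0867), did not pass the test. It did with DESeq2 (adjusted p = 0.0443) and in a fit of all 18 libraries (adjusted p = 0.0369).

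Of 20 tested interleukin receptor genes, 3 had a higher and 5 a lower effect in CD8 cells and 12 were not called (median difference -0.37). The 5 became 2 without deficient CD8 replicate 1 or 3 or deficient CD4 replicate 2, and became 3 without floxed CD8 replicate 2, floxed CD4 replicate 3 or deficient CD4 replicate 3. The median was -0.24 without floxed CD8 replicate 2 and -0.234 without floxed CD4 replicate 3, and under the macrophage covariate it was -0.04 with 2 members called higher. Il2rb, the beta chain for IL-2 and IL-15, fell in CD8 cells (log2 change -0.73; difference -0.98 ± 0.26, SE, adjusted p = 0.0257), and Il10ra, the ligand-binding chain for IL-10, fell in both cell types and further in CD8 cells (log2 changes -1.36 and -0.60; difference -0.76 ± 0.20, SE, adjusted p = 0.0293). Their calls were lost in 6 and 7 of 12 fits with 1 library left out, with adjusted p up to 0.0851 and 0.114. Among those with a higher effect, Il4ra, the receptor chain for IL-4 and IL-13, had 337, 339 and 289 CPM in deficient CD8 libraries, against 177, 139 and 109 CPM in floxed CD8 libraries, while its CD4 levels were 340.4, 294 and 268 CPM in deficient and 346, 314 and 302 CPM in floxed libraries (difference 1.27 ± 0.23, SE, adjusted p = 0.00267). Il6st, the shared gp130 chain, differed by 1.06 ± 0.24 (SE; adjusted p = 0.0113). Stat3, which transmits IL-6 and IL-10 family signals, fell in CD8 cells (log2 change -0.79) and had 0.28, not called, in CD4 cells (difference -1.07 ± 0.23, SE, adjusted p = 0.00849). Tnfsf8, the ligand CD30L, rose in CD8 cells, with 112, 107 and 89.1 CPM in deficient CD8 libraries, against 30.6, 28.2 and 17.3 CPM in floxed CD8 libraries. Its log2 change in CD4 cells was 0.33, not called, and the difference 1.68 ± 0.27 (SE; adjusted p = 0.00146). Of 11 tested follicular helper genes, 4 had a higher and 2 a lower effect in CD8 cells and 5 were not called (median difference 0.76). The median was 0.507 without floxed CD8 replicate 1, and under the macrophage covariate it was 0.92 with 0 members called. The transcription factors Maf and Bcl6, both known for follicular helper T cells, had higher effects in CD8 cells. Maf had 16, 26.6 and 22.2 CPM in deficient CD8 libraries, against 8.35, 8.42 and 5.33 CPM in floxed CD8 libraries, and 236, 281 and 250.0 CPM in deficient CD4 libraries, against 403, 327 and 371 CPM in floxed CD4 libraries (difference 2.05 ± 0.27, SE, adjusted p = 0.000318). Its level in deficient CD8 libraries stayed far below that in CD4 libraries. Maf was highest in floxed CD4 libraries, where the macrophage marker sum was highest too, and the part of macrophage RNA in it was not tested. Bcl6 rose in CD8 cells and fell in CD4 cells (difference 1.97 ± 0.38, SE, adjusted p = 0.00426).

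Of 17 tested killer cell lectin-like receptor genes, 6 rose and 2 fell in deficient CD8 cells, and 0 rose and 4 fell in deficient CD4 cells. The effect was higher in CD8 cells for 5 and lower for 1 (median difference 1.67), and the 1 was not called when floxed CD8 replicate 2 or deficient CD8 replicates 1 or 2 were left out. Under the macrophage covariate 1 was called higher (median 1.56). The 5 with a higher effect all encode Ly49 receptors, a family of inhibitory and activating receptors for MHC class I. Klra7 (chr6:130218605-130233322, minus strand) had 97, 93.3 and 97.2 CPM in deficient CD8 libraries, against 19.1, 15.2 and 3.31 CPM in floxed CD8 libraries. In CD4 cells Klra7 had 2.36, 2.46 and 3.77 CPM in deficient CD4 libraries, against 11.5, 9.8 and 7.24 CPM in floxed CD4 libraries. Groups were separate in both cell types, with the deficient libraries above the floxed ones in CD8 and below them in CD4 cells, and the difference was 4.71 ± 0.64 (SE; adjusted p = 0.00077). Klra6 and Klra1 had differences of 3.94 ± 0.70 (SE; adjusted p = 0.00239) and 3.01 ± 0.50 (SE; adjusted p = 0.00161). Klra9 rose in deficient CD8 cells (log2 change 3.10), and its difference of 3.17 ± 0.85 (SE; adjusted p = 0.0288) was lost in 4 of 12 fits with 1 library left out (floxed CD8 replicate 2, deficient CD8 replicates 2 and 3, floxed CD4 replicate 1; adjusted p up to 0.0799). Klra3 was not called in CD8 cells (log2 change 0.80) and fell in CD4 cells (-2.16; difference 2.96 ± 0.68, SE, adjusted p = 0.0108). These genes are similar in sequence to each other. The featureCounts command given with the counts has no option to count reads that match several places, so values of single members are uncertain. Of 13 tested natural killer cell markers, 3 rose in deficient CD8 cells, namely Klra7 and Klra9, which are in both lists, and Klrb1c, the receptor NK1.1 (log2 change 2.46), and 1 fell. Of 5 tested gamma delta T cell markers, 3 rose there, among them Trdc (log2 change 1.84) and Tcrg-C1, a constant chain of the gamma receptor (2.50). Tcrg-C2, another gamma constant chain and the most abundant of them, was not called there (log2 change -0.22). It averaged 26.4 CPM in deficient CD8 and 30.8 CPM in floxed CD8 libraries. The summed natural killer cell marker level was 641.3, 725.7 and 779.5 CPM in deficient CD8 libraries, against 850.3, 788.4 and 885.2 CPM in floxed CD8 libraries. The part of natural killer or gamma delta T cell RNA in the Ly49 values was not tested. Gpr15, a homing receptor of T cells to the gut, had 20.9, 18.3 and 17.9 CPM in deficient CD8 libraries, against 1.47, 2.01 and 1.84 CPM in floxed CD8 libraries, and its CD4 values of 0.918, 2.33 and 7.25 CPM in deficient and 7.09, 11.2 and 4.24 CPM in floxed libraries overlapped (difference 4.67 ± 0.77, SE, adjusted p = 0.00162).

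**Figure D4:**
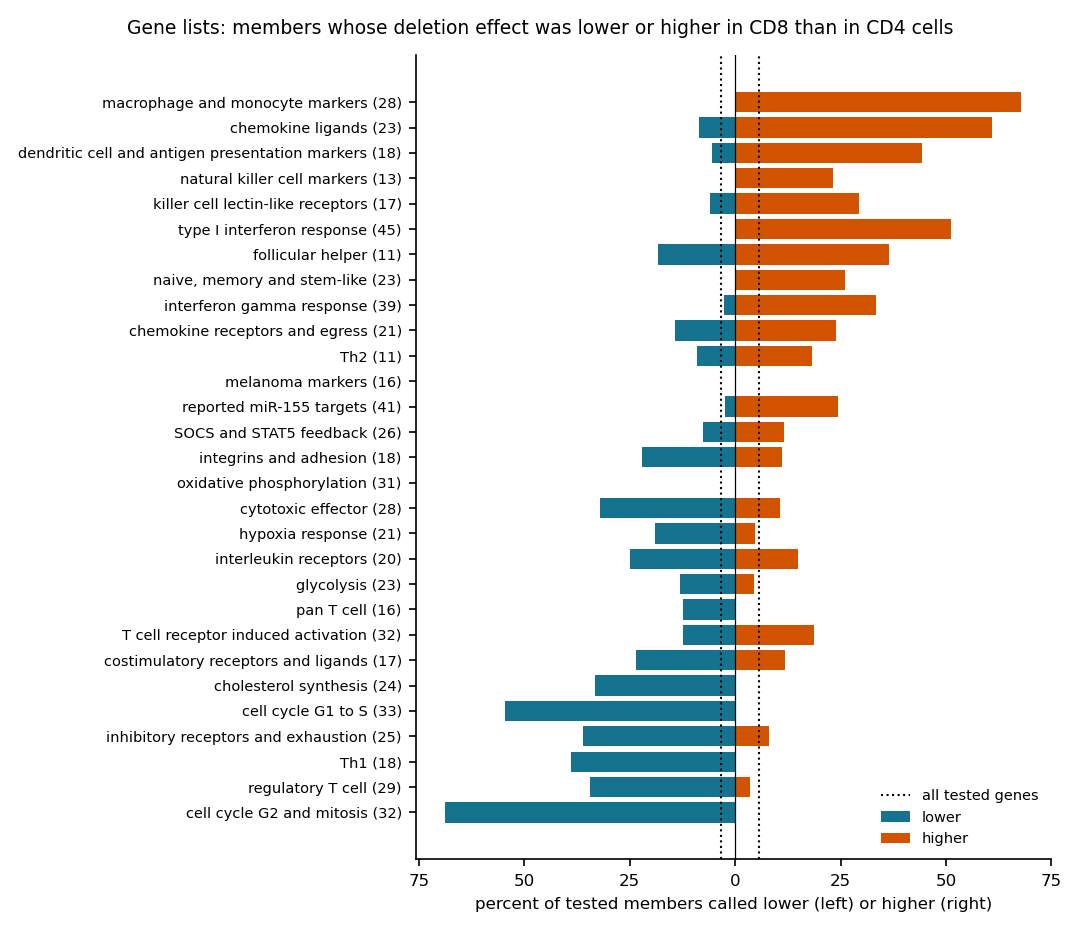
Bars give the percent of tested members of each gene list (number in brackets) whose deletion effect was called lower (left, teal) or higher (right, orange) in CD8 than in CD4 cells, for lists with at least 10 tested members, ordered by median difference. Dotted lines mark the shares over all tested genes, 3.28% lower and 5.68% higher. Cell cycle lists have the longest bars to the left (68.8% for G2 and mitosis), and macrophage markers the longest to the right (67.9%).

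Interferon-stimulated genes had higher effects in CD8 cells. Of 45 tested genes of the type I interferon response, 23 (51.1%) had a higher and 0 a lower effect in CD8 cells. The median log2 change was 0.68 in CD8 and -0.73 in CD4 cells, with 21 members called higher in CD8 and 10 called lower in CD4 cells. Irf7 (chr7:141262706-141266481, minus strand) encodes the transcription factor that amplifies interferon production. It had 104, 148 and 139 CPM in deficient CD8 libraries, against 51, 57.7 and 56.6 CPM in floxed CD8 libraries. In CD4 cells it had 124, 219.9 and 193 CPM in deficient CD4 libraries, against 345, 321 and 521 CPM in floxed CD4 libraries. The 4 groups were all separate from their counterparts, in opposite directions, and the difference was 2.39 ± 0.31 (SE; adjusted p = 0.000369).

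Rsad2, which encodes the antiviral enzyme viperin, had 28.2, 65 and 32.3 CPM in deficient CD8 libraries, against 13.3, 10.1 and 5.88 CPM in floxed CD8 libraries. In CD4 cells Rsad2 had 32.5, 113 and 65.5 CPM in deficient CD4 libraries, against 248, 266 and 230.4 CPM in floxed CD4 libraries, and the difference was 3.90 ± 0.64 (SE; adjusted p = 0.0044). Ifit2, an RNA-binding antiviral protein, had 90.3, 139 and 109 CPM in deficient CD8 libraries, against 63.8, 77.2 and 69.8 CPM in floxed CD8 libraries, and 106, 173 and 176 CPM in deficient CD4 libraries, against 293, 399.5 and 475 CPM in floxed CD4 libraries (difference 2.05 ± 0.31, SE, adjusted p = 0.00109). Ifi204, a DNA sensor of the interferon-inducible p200 family, was also separate in both cell types. It had 19.6, 44.2 and 45.4 CPM in deficient and 6.3, 9.73 and 10.3 CPM in floxed CD8 libraries, and 54.4, 113 and 121 CPM in deficient and 344, 315 and 537 CPM in floxed CD4 libraries (difference 4.10 ± 0.55, SE, adjusted p = 0.00135). Rtp4 and Oasl1 differed by 2.50 and 3.23. In each of these genes floxed CD4 libraries were the highest and floxed CD8 libraries the lowest of the 4 groups by mean, and deficient libraries lay between them.

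The same order held for the macrophage marker sum, which was lowest on average in floxed CD8 and highest in floxed CD4 libraries (13960 to 29600 CPM). With that sum as a covariate the median difference of the type I interferon list was 0.61 and 0 members were called. The part of macrophage RNA in the interferon genes was not tested beyond this fit. Genes of the interferon gamma response had 13 of 39 tested members with a higher and 1 with a lower effect in CD8 cells, and here the change lay mainly in CD8 cells (median log2 change 0.68 in CD8 and -0.04 in CD4 cells). The 1 became 0 in 4 fits with 1 library left out (floxed CD8 replicate 2, deficient CD8 replicates 1 and 3, deficient CD4 replicate 1), and under the macrophage covariate 1 member was called higher (median difference 0.83, against 0.6 without it). Gbp2, a guanylate-binding protein that acts on intracellular pathogens, had 347, 500.4 and 378 CPM in deficient CD8 libraries, against 166, 168 and 141 CPM in floxed CD8 libraries. In CD4 cells Gbp2 had 433, 698 and 580.2 CPM in deficient CD4 libraries, against 751, 575 and 781 CPM in floxed CD4 libraries, with overlap, and the difference was 1.67 ± 0.26 (SE; adjusted p = 0.00121). Tgtp2, an interferon-induced GTPase, had a log2 change of 1.65 in CD8 and near 0 in CD4 cells (difference 1.65 ± 0.29, SE, adjusted p = 0.00243). Tgtp1 and Tgtp2 are near-identical copies, so their separate values are uncertain.

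Promoters of this list were searched for the core of the interferon-stimulated response element, spelled GAAANNGAAA, on both strands of the 300 bases around each gene start. Of 34 list genes with a promoter in the RefSeq table (GRCm38.p6), 19 (55.9%) held it, against 3.99% of 27025 genes. It was in 10 of 18 (55.6%) of those with a higher effect in CD8 cells and 9 of 16 (56.2%) of those not called. The promoters of Ifit3, at chr19:34583279-34583578 on the plus strand, and Rsad2, at chr12:26456403-26456702 on the minus strand, are shown as members with the element. It stands in capitals, in both promoters as the reverse complement on the gene's strand. Ifit3, a partner of Ifit1 in binding viral RNA, had a difference of 2.82 ± 0.48 (SE; adjusted p = 0.00362).
Ifit3 promoter: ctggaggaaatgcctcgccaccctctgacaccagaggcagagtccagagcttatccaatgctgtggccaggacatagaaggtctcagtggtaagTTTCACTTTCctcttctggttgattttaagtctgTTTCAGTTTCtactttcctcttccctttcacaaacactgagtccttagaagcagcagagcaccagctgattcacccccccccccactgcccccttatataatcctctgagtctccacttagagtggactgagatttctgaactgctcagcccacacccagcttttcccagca
Rsad2 promoter: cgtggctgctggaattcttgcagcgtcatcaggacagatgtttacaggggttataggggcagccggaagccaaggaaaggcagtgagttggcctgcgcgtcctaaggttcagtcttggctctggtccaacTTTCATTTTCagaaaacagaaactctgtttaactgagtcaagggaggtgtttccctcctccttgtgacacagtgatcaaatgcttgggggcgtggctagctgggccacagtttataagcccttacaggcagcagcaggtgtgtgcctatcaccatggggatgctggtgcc

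**Figure D5:**
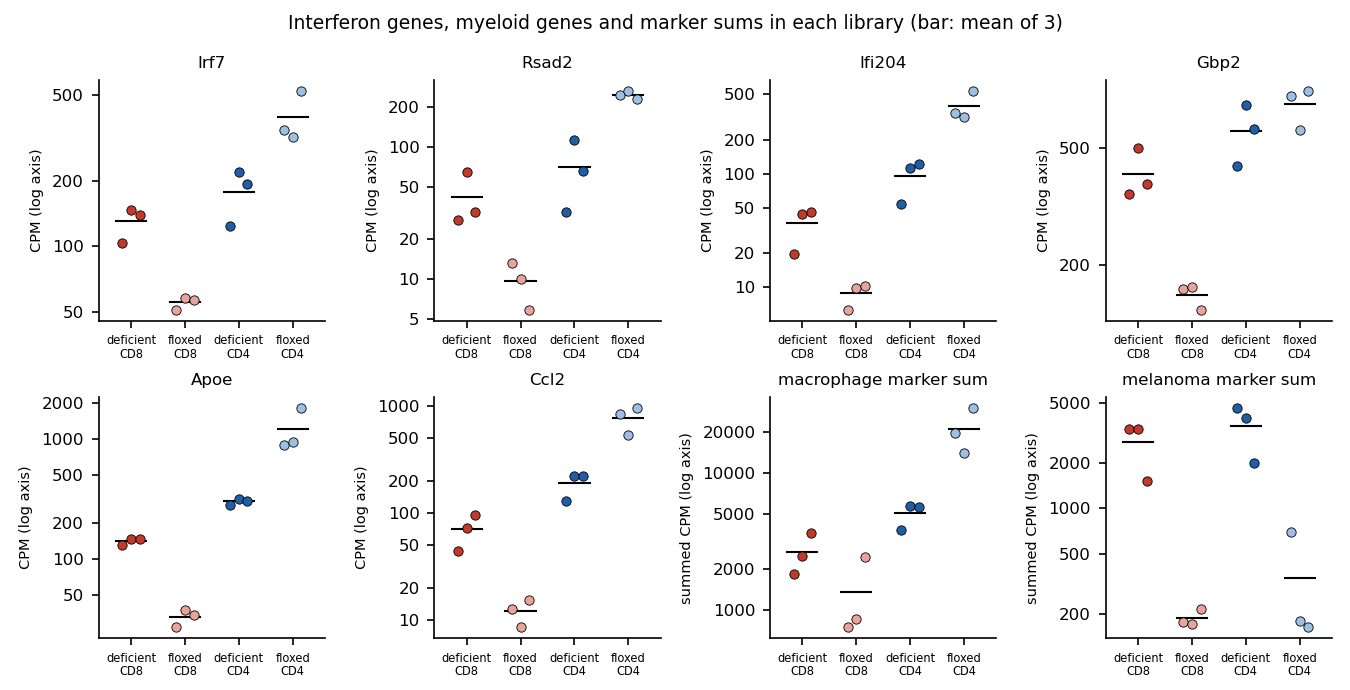
Each panel plots a gene, or the summed level of a marker list, in the 12 libraries in CPM on a log axis, with a bar at the mean of 3. Irf7, Rsad2, Ifi204, Apoe, Ccl2 and the macrophage marker sum share one order of group means, lowest in floxed CD8 and highest in floxed CD4 libraries, whereas the melanoma marker sum is higher in both deficient groups.

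Genes of myeloid cells had positive differences as well. Of 28 tested macrophage and monocyte markers, 19 (67.9%) had a higher and 0 a lower effect in CD8 cells, with a median log2 change of 1.23 in CD8 and -2.0 in CD4 cells. Apoe (chr7:19696109-19699188, minus strand), an apolipoprotein made by macrophages, had the smallest adjusted p of this list. It had 131, 146 and 146 CPM in deficient CD8 libraries, against 27, 37.4 and 34 CPM in floxed CD8 libraries. In CD4 cells Apoe had 284, 318 and 307 CPM in deficient CD4 libraries, against 893, 956 and 1816 CPM in floxed CD4 libraries, and the difference was 4.12 ± 0.31 (SE; adjusted p = 1.33e-05). Itgam, the integrin chain CD11b, and Ms4a7, a membrane protein of macrophages, differed by 4.24 and 5.31. Folr2, a folate receptor of tissue macrophages, had 1.2, 3.42 and 3.48 CPM in deficient and 0.879, 0.702 and 0.367 CPM in floxed CD8 libraries, and 4.2, 6.16 and 5.22 CPM in deficient and 95.8, 65.6 and 178 CPM in floxed CD4 libraries. Spic, a transcription factor of red pulp macrophages, had no count in floxed CD8 libraries, at most 0.498 CPM in deficient CD8, at most 0.525 CPM in deficient CD4, and 22.6, 10.7 and 10.5 CPM in floxed CD4 libraries.

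Chemokine ligands known from myeloid cells followed. Of 23 tested chemokine ligand genes, 14 had a higher and 2 a lower effect in CD8 cells (median difference 3.2). Ccl2, which attracts monocytes, had 44.4, 72.4 and 96 CPM in deficient CD8 libraries, against 12.8, 8.62 and 15.4 CPM in floxed CD8 libraries. In CD4 cells Ccl2 had 129, 220.0 and 222 CPM in deficient CD4 libraries, against 833, 538 and 951 CPM in floxed CD4 libraries, and the difference was 4.58 ± 0.46 (SE; adjusted p = 0.000215). Ccl6, Pf4 and Cxcl2 differed by 4.74, 5.17 and 4.48. The 2 with a lower effect in CD8 cells, Ccl5 and Ccl4, are ligands that T cells make themselves, and the call of Ccl4 was lost in 7 of 12 fits with 1 library left out (adjusted p up to 0.1). Ccl5 had 106, 118 and 139.7 CPM in deficient CD8 libraries, against 256, 202 and 194 CPM in floxed CD8 libraries, and its CD4 levels overlapped (difference -0.97 ± 0.22, SE, adjusted p = 0.0104). Ccl3, likewise made by activated T cells, fell in both cell types by similar amounts (log2 changes -1.96 and -1.75; difference -0.21 ± 0.37, SE, adjusted p = 0.806). Of 18 tested genes of dendritic cells and antigen presentation, 8 had a higher and 1 a lower effect in CD8 cells. Those with a higher effect include H2-Aa, a chain of MHC class II, with a difference of 3.42 ± 0.46 (SE; adjusted p = 0.00131), and Ciita, its master regulator, with 2.71 ± 0.34 (SE; adjusted p = 0.000218). The others were Cd74, H2-Ab1, H2-Eb1, H2-DMa, H2-DMb1 and Batf3, so all but Batf3 belong to MHC class II antigen presentation. The 1 with a lower effect was Cd80, a ligand of CD28, with -1.67 ± 0.44 (SE; adjusted p = 0.0274), a call lost in 8 of 12 fits with 1 library left out (adjusted p up to 0.081). Under the macrophage covariate the median difference was 0.97 for macrophage markers with 1 called, 2.02 for chemokine ligands with 0 called, and 0.71 for the dendritic cell list with 1 called lower (2.5 without the covariate).

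Of 32 tested genes induced through the T cell receptor, 6 had a higher and 4 a lower effect in CD8 cells and 22 were not called (median difference -0.56). The 6 became 3 without deficient CD8 replicate 1, floxed CD4 replicate 3 or deficient CD4 replicate 2. The 4 became 8 without floxed CD8 replicate 3, and became 2 without deficient CD8 replicates 1 or 3 or deficient CD4 replicate 1. The median was -0.147 without floxed CD8 replicate 1, and under the macrophage covariate it was 0.34 with 0 members called. Fos, a subunit of AP-1 induced within minutes of a stimulus, including by tissue dissociation, had 457, 475 and 446 CPM in deficient CD8 libraries, against 301, 246 and 223 CPM in floxed CD8 libraries. In CD4 cells it had 512, 488 and 569 CPM in deficient CD4 libraries, against 1140.1, 1117 and 1894 CPM in floxed CD4 libraries. The groups were separate in both cell types and in opposite directions, with floxed CD4 libraries highest, and the difference was 2.24 ± 0.26 (SE; adjusted p = 0.000133). Ier3 resembled it, with 1.79 ± 0.27 (SE; adjusted p = 0.000838). Dusp5, a phosphatase that restrains ERK and is induced by the T cell receptor, moved the other way (difference -1.36 ± 0.26, SE, adjusted p = 0.00363).

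A few genes changed in the same direction in both cell types and to different extents. H2-Ob (chr17:34238903-34245907, plus strand), a chain of the MHC class II modulator H2-O, rose in both. It had 33, 19.5 and 23.4 CPM in deficient CD8 libraries, against 2.2, 1.7 and 2.57 CPM in floxed CD8 libraries. In CD4 cells H2-Ob had 27, 26.7 and 30.7 CPM in deficient CD4 libraries, against 8.11, 10.3 and 14.7 CPM in floxed CD4 libraries, and the difference was 2.21 ± 0.41 (SE; adjusted p = 0.00331). Tnfrsf26, a decoy receptor gene of the TNF receptor family in mice, had 85, 70.1 and 72.6 CPM in deficient CD8 libraries, against 12.6, 10.6 and 7.72 CPM in floxed CD8 libraries, and 54.3, 53.8 and 45.8 CPM in deficient CD4 libraries, against 26, 23.7 and 19 CPM in floxed CD4 libraries (difference 1.71 ± 0.27, SE, adjusted p = 0.00129). Asns, asparagine synthetase, rose further in CD4 cells. It had 84.9, 82.8 and 67.5 CPM in deficient CD8 libraries, against 29.8, 33.4 and 66 CPM in floxed CD8 libraries, and 90.6, 69 and 61.5 CPM in deficient CD4 libraries, against 18.9, 12.5 and 16.7 CPM in floxed CD4 libraries. Floxed CD8 replicate 3 lay just below the deficient CD8 libraries, and the difference of -1.33 ± 0.38 (SE; adjusted p = 0.0417) was lost in 9 of 12 fits with 1 library left out (adjusted p up to 0.121), kept without floxed CD8 replicates 1 or 2 or floxed CD4 replicate 1, and lost with limma voom (adjusted p = 0.0639) and total-count scaling (adjusted p = 0.0665). By edgeR, 0 of 16 tested melanoma markers were called in the difference (2 had an unadjusted p under 0.05, and DESeq2 and limma voom called 1 each), while 16 of them rose in deficient CD8 cells and 12 in deficient CD4 cells (median log2 change 3.81 in CD8 and 3.33 in CD4 cells). Their median difference was 0.24, and 1.95 under the macrophage covariate. It depended on floxed CD4 replicate 1, whose melanoma marker sum was 698 CPM, against 179.5 and 164.7 CPM in floxed CD4 replicates 2 and 3. Without that library the median difference was -1.85 and 1 member was called lower. With each of the 12 libraries left out in turn it lay between -1.85 and 0.718.

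Of 41 tested reported miR-155 targets, 15 rose and 3 fell in deficient CD8 cells, and 4 rose and 6 fell in deficient CD4 cells. The effect was higher in CD8 cells for 10 (24.4%) and lower for 1, and the median difference was 0.22. That median was 0.495 without floxed CD8 replicate 1 and 0.332 without floxed CD4 replicate 3, and 0.55 with 2 members called higher under the macrophage covariate. The 1 with a lower effect was Hif1a, a transcription factor of the response to low oxygen (difference -0.73 ± 0.21, SE, adjusted p = 0.0428). It was not called in 9 of 12 fits with 1 library left out (adjusted p up to 0.106) or with total-count scaling (adjusted p = 0.0695), and without floxed CD8 replicate 1 there were 2 such members. Bach1, a repressor of heme and oxidative stress genes whose site is printed above, had 55.9, 65.4 and 78 CPM in deficient CD8 libraries, against 30.05, 33.2 and 33.3 CPM in floxed CD8 libraries. In CD4 cells Bach1 had 86.3, 95.1 and 95.1 CPM in deficient CD4 libraries, against 141, 179 and 223 CPM in floxed CD4 libraries. The groups were separate in both cell types, up in deficient CD8 and down in deficient CD4 libraries, and the difference was 2.01 ± 0.24 (SE; adjusted p = 0.000139). Cebpb, a transcription factor abundant in myeloid cells, had 57.2, 55.1 and 58.1 CPM in deficient CD8 libraries, against 33.6, 25.7 and 25.5 CPM in floxed CD8 libraries, and 129, 165 and 124 CPM in deficient CD4 libraries, against 275, 229.7 and 381 CPM in floxed CD4 libraries (difference 2.09 ± 0.26, SE, adjusted p = 0.000199). Both genes had their highest levels in floxed CD4 libraries, where the macrophage marker sum was highest, and the part of macrophage RNA in them was not tested.

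Trp53inp1, a stress-induced regulator of autophagy and cell death, had 389.9, 327 and 308 CPM in deficient CD8 libraries, against 118, 129 and 73.5 CPM in floxed CD8 libraries. In CD4 cells Trp53inp1 had 645, 515 and 602 CPM in deficient CD4 libraries, against 469, 463 and 283 CPM in floxed CD4 libraries, separate but not called, and the difference of 1.14 ± 0.30 (SE; adjusted p = 0.0296) was lost in 5 of 12 fits with 1 library left out (deficient CD8 replicate 1, deficient CD4 replicates 2 and 3, floxed CD4 replicates 1 and 2; adjusted p up to 0.075). Ikbke, a kinase of the interferon and NF-kappa-B pathways, differed by 1.20 ± 0.27 (SE; adjusted p = 0.0105). Inpp5d, the phosphatase SHIP-1 and one of the best known targets, had no called change, with 180.5, 212 and 201 CPM in deficient CD8 libraries, against 282, 161 and 181 CPM in floxed CD8 libraries, and 265, 291 and 284 CPM in deficient CD4 libraries, against 324, 348 and 356 CPM in floxed CD4 libraries (difference 0.22 ± 0.24, SE, adjusted p = 0.667).

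Genes with and without a seed match in the 3′ UTR had similar median differences, a value in which changes shared by both cell types cancel. Among 11897 tested genes with an annotated 3′ UTR, 1697 had a match of 7 or 8 bases, and their median difference was 0.02, against -0.07 in the 10200 genes without one. Within the cell types, the median log2 change was 0.085 with and -0.015 without a match in CD8 cells. In CD4 cells it was 0.063 with and 0.028 without a match. Of those with a match 6.36% had a higher and 2.65% a lower effect in CD8 cells, and of those without 6.19% and 3.73%. Genes with a match had longer 3′ UTRs (median 2535 bases, against 1023), and the part of length was not tested. Of the 41 reported targets, 31 had a match, 8 of which had a higher and 1 a lower effect in CD8 cells.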

How the data were processed

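Each library came as a deposited table of raw read counts for every gene model. The headers of those tables name featureCounts 1.5.1 run with strand option 2 on Ensembl 87 gene models, so the authors' counts used strand. GRCm38 (build), STAR and DESeq2 appear in the submitters' processing notes. Symbols came from GENCODE M21, which held 49326 of the 49671 IDs, and gene coordinates from the GRCm38 models in the deposited tables. A robust quasi-likelihood model of edgeR 4.0.16 (R 4.3.3) was fitted to the 12 libraries together after filterByExpr and with TMM factors. It left 8 residual degrees of freedom, with a common biological coefficient of variation of 0.242. P-values were adjusted by Benjamini-Hochberg over the 13738 tested genes, and genes under 0.05 were called. CPM values are TMM-scaled, ± gives the SE of the fit, and libraries are given as replicates 1, 2 and 3. The script was tested on simulated data. Alternatives were limma 3.58.1 voom, DESeq2 1.42.0, other scalings and filters, blocks, covariates and leaving out libraries. The members and the 38 lists were chosen with earlier results of these data known. Named are fixed genes, up to 12 with the largest difference each way at 10 CPM or more, up to 8 per opposite pattern, 6 changed alike and up to 4 per list by adjusted p. Lag3, S1pr1, Ifit3, Rsad2, Oasl1, Ccl3, Ccl4, Ccl5, Ccnb1, Trp53inp1, Ikbke, Il2rb, Il10ra, Cd80, Ighm, Trdc, Tcrg-C1, Klra3, Klra9, Klrb1c and Hif1a were chosen after their values were seen. Genes with 3 counts or fewer in a group are given as levels. A few genes are not reported here.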

Additional observations from a re-analysis of the deposited data

Results flagged for a closer look

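A different response of the 2 cell types to the deletion was called for 780 genes with a higher and 450 genes with a lower effect in CD8 cells, by the test of the difference itself. Opposite calls within the cell types, a rise in deficient CD8 and a fall in deficient CD4 cells, were found for 178 of the 780, and the reverse pattern for 8 of the 450. The 178 include macrophage markers and interferon genes, whose levels moved with the macrophage marker sum of the libraries, and its part was not tested beyond the fit with that sum as a covariate. The 8 include Tnfrsf9, Bub1, H2afx, Cdca3 and Ccr3.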

How the results depend on the processing

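The 1230 calls of the difference (780 higher and 450 lower in CD8 cells) ranged from 832 to 1466 with 1 library left out, the higher ones from 573 to 1001 and the lower ones from 192 (without deficient CD8 replicate 1) to 614. The calls within CD8 cells ranged from 1244 to 2467 (1244 and 1403 without deficient CD8 replicates 1 and 2) and those within CD4 cells from 559 to 1678 (694 without floxed CD4 replicate 3, 559 and 778 without deficient CD4 replicates 1 and 2). Lower calls were 293 without floxed CD8 replicate 2, 192, 238 and 232 without deficient CD8 replicates 1, 2 and 3, and 288, 273 and 260 without deficient CD4 replicates 1, 2 and 3. No filter gave 691 lower calls. Marker covariates of both kinds left 47 calls (28 higher, 19 lower), of which 26 were among the 1230, with 3 in CD8 and 0 in CD4 cells alone. Of 2 alternatives chosen after seeing the data, the macrophage marker level alone left 65 calls (48 higher, or 73.8%, and 17 lower) and 40 in CD4 cells, and the melanoma level alone left 1208, with 0 in CD8 and 0 in CD4 cells alone. DESeq2 called 1755 genes, limma voom 1178, total-count scaling 1093 (69.6% higher, against 63.4% with TMM scaling), and the fit on all 18 libraries 1634. Same-numbered CD8 and CD4 libraries of 1 genotype had r from 0.00469 to 0.174, with 2 of 6 pairs over the threshold of 0.1, and 12 pairs of other numbers had r from -0.126 to 0.0703. Since not every pair passed, the numbers were not used as pairs, and whether same-numbered pools shared animals is not known. With the replicate block within genotype 1501 genes were called and with the block over all groups 1456, and within the first the separate CD8 and CD4 effects could not be fitted. Neither block ended a call among the 91 named genes that were called. The Mir155hg difference, near 0, changed sign under RLE (0.0194), total-count scaling (0.0235), no filter (0.0109), DESeq2 (0.0645), limma voom (0.0774), all 18 libraries (0.0126), marker covariates (1.25) and the macrophage level alone (1.11), and ranged from -0.744 to 0.89 with 1 library left out. Under marker covariates and under the macrophage level alone, Cd4 had 1.57 and 1.66 and Cd28 0.345 and 0.306, and under marker covariates Prf1 had 0.0548. Ccl3 ranged from -0.421 to 0.0866 with 1 library left out. The cause of these changes was not tested. In counts simulated for this contrast over 13404 genes, 24% of 100 genes set to differ by 1 on the log2 scale and 87% of 100 set to 2 were called, so smaller differences were often not detectable at this depth and number of pools. The genes set to differ were drawn only from those with a mean of at least 10 CPM, so the shares do not cover genes at lower levels.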
